A study of Mus musculus with 9 samples.

Results

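The nuclear genes for the subunits of respiratory complexes II to V were compared between heart and quadriceps muscle of sham-operated mice. They were taken by their symbols (Sdha to Sdhd, Cyc1, and names starting with Uqcr, Cox4 to Cox8 or Atp5), which gave 48 genes with 67 transcripts among the 24537 gene names and 35745 transcripts of the table. Each gene was read by its transcript with the highest summed count, since reads in shared exons were counted for several transcripts (the 5 of Atp5j had 23272 to 32180 counts each in heart library 1). The 48 genes hold 4 subunits of complex II, 9 of complex III, 17 of complex IV and 15 of complex V. The other 3, Cox7a2l, Atp5s and Atp5sl, match by name but are not counted as subunits. Subunits encoded by mitochondrial DNA were not analysed here.

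The libraries came from a study of muscle wasting in heart failure, in which male wild-type C57Bl/6JCrl mice (C57Bl6 in the labels) had sham surgery or transverse aortic constriction (TAC) at 8 weeks of age by the series' design. Tissue was taken 12 weeks after surgery. Used here are the 3 libraries of sham heart and the 3 of sham quadriceps, which share strain, sham surgery and time and differ in the organ. The 3 libraries of TAC quadriceps were not analysed here, since 0 of the 48 genes are among the 587 genes of that table. The study calls its replicates biological, and the labels number the libraries without naming animals. The p-values measure the spread between these samples. Heart libraries held 33102826 to 38382751 counts and quadriceps libraries 23383452 to 32989108.

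Complex II (succinate dehydrogenase) and complex III pass electrons by way of ubiquinone and cytochrome c to complex IV (cytochrome c oxidase), and complex V (ATP synthase) uses the proton gradient to make ATP. Heart muscle works without pause on oxidative metabolism and is packed with mitochondria, whereas mouse quadriceps is mostly made of fast, glycolytic fibres. Several subunits of complex IV are encoded by paired genes, of which one is used in heart and skeletal muscle and the other in most tissues.

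The labelled tissues matched their markers. All 8 cardiomyocyte markers (Myh6, Tnnt2 and others) were lower in quadriceps, with a summed level of 30126 to 33104 CPM (the count as a share of the TMM-scaled library size) in heart and of 11.8 to 15.7 in quadriceps. All 10 fast fibre markers were higher in quadriceps (933 to 988 CPM in heart, 79008 to 110330 in quadriceps). Of 7 slow fibre markers, several of which the heart uses too, 5 were lower in quadriceps and 2, Tnnt1 and Tnni1, higher (17196 to 17590 CPM summed in heart, 809 to 1044 in quadriceps). Among the other cells the tissue can hold, endothelial markers were lower in quadriceps (6 of 6, 488 to 532 against 149 to 174 CPM), as were 5 of 8 pericyte and smooth muscle markers, 3 of 5 fibroblast, 3 of 5 macrophage and 3 of 3 blood markers. The 4 adipocyte markers tested were higher in quadriceps, mostly in quadriceps library 1 (73.2 CPM, against 26.7 and 9.94 in libraries 2 and 3 and 0.349 to 1.30 in heart). Quadriceps library 1 also had the highest value of its tissue for 24 of the 46 genes tested, library 2 for 18 and library 3 for 4. Of the heart libraries, library 3 had the highest value for 33 of the 46 genes, library 1 for 10 and library 2 for 3. Atrial genes also differed among them. Myl7 had 43.6, 3.26 and 0.0699 CPM in heart libraries 1, 2 and 3, Myl4 had 142.97, 15.02 and 2.12 and Nppa had 457, 398 and 186. The part of these cells and libraries in the differences below was not tested. In bulk tissue, fewer cells of a type and less RNA per cell cannot be told apart.

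How the libraries were scaled decided many directions. The 20 most abundant transcripts took 19.0% to 19.6% of the counts in heart and 28.9% to 33.99% in quadriceps. TMM, a scaling that sets the bulk of transcripts level, gave factors of 1.29 to 1.31 in heart and 0.725 to 0.833 in quadriceps. Scaling by library totals instead moved the median log2 fold change (quadriceps minus heart) of all 24280 tested transcripts from -0.06 to -0.80. RPKM values, which the authors made with library totals, carry the same shift. Therefore both values are given below for the members tested, and another scaling, which holds the mean of the subunits themselves level, shows how they differ from each other.

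With TMM, 17 of the 46 genes tested were lower in quadriceps (37.0%, against 34.4% of all transcripts tested), 11 were higher (23.9%, against 32.2%) and 18 passed in neither direction (edgeR's quasi-likelihood test, adjusted p under 0.05). The count thus stood near the background in the lower direction. Of these, 7 were lower by at least 1 on the log2 scale (background 20.5%) and 3 were higher by as much (background 16%). Leaving out 1 library at a time, 21 of the 28 calls held in all 6 runs, and 6 of the 18 other genes passed in 1 run each. These were Sdha, Cox7a2 and Atp5k without quadriceps library 1, and Sdhd, Uqcrh and Cox7b without quadriceps library 3. Without heart library 1 or without heart library 3, 14 genes were lower and 9 higher each time. Of all transcripts, 7471 of 23997 and 7570 of 24078 were then lower, and 7020 and 7148 higher. The median of the 46 log2 fold changes was -0.14. With library totals, 38 were lower (background 62.6%) and 3 higher (background 13.3%), with a median of -0.89. Scaled to the subunits' own mean, 14 were lower (background 28%) and 19 higher (background 38.7%). The 30 members of up to 1000 bases had a TMM median of -0.14, and the 1750 tested transcripts of that length one of 0.32. Not tested were Cox8c, a testis gene with 0 counts in all libraries, and Atp5g2, with 1, 4 and 2 counts in heart and 1 in each quadriceps library.

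**Figure D1:**
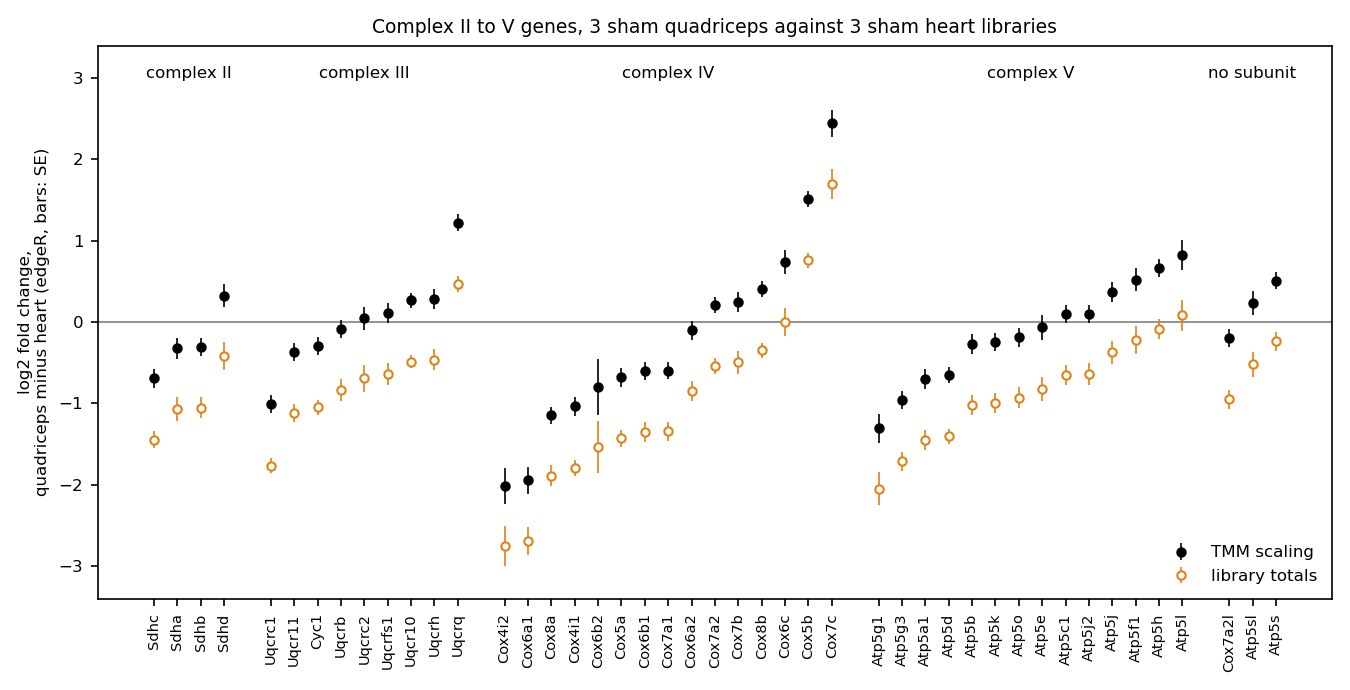
Log2 fold change (vertical axis, quadriceps minus heart, bars SE) of 45 tested genes by complex, with TMM scaling (filled points) and with library totals (open points). Cox7b2, with 1 count in quadriceps, is left out. The open points lie below the filled ones throughout, and Cox5b, Cox7c, Uqcrq and, by less than its SE with totals, Atp5l stay above 0 with both.

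The sign was negative with all 3 scalings for 21 genes and positive for 4 (Uqcrq, Cox5b, Cox7c and Atp5l). Past the threshold with each, and lower in quadriceps, were 14: Sdhc of complex II, Uqcrc1 of complex III, Cox4i1, Cox4i2, Cox5a, Cox6a1, Cox6b1, Cox7a1, Cox7b2 and Cox8a of complex IV, and Atp5a1, Atp5d, Atp5g1 and Atp5g3 of complex V. Past it and higher with each were 3: Uqcrq, Cox5b and Cox7c. Of the genes lower with each, Cox7b2 entered the test only through its heart counts. The share of all transcripts that keep a sign or a call with all 3 scalings was not computed. By TMM, totals and the subunits' own mean, the background was 34.4%, 62.6% and 28% lower and 32.2%, 13.3% and 38.7% higher. The scaling to the subunits' own mean is built from these same genes, so it is not independent of them. For 16 genes the sign differed between TMM (positive) and library totals (negative). With TMM the values of the groups did not overlap for 35 of the 48 genes: heart lay above quadriceps for 21 (background 38.3%) and quadriceps above heart for 14 (background 34.2%). In RPKM, heart lay above for 38 (background 65.7%) and quadriceps for 3 (background 14.3%).

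**Figure D2:**
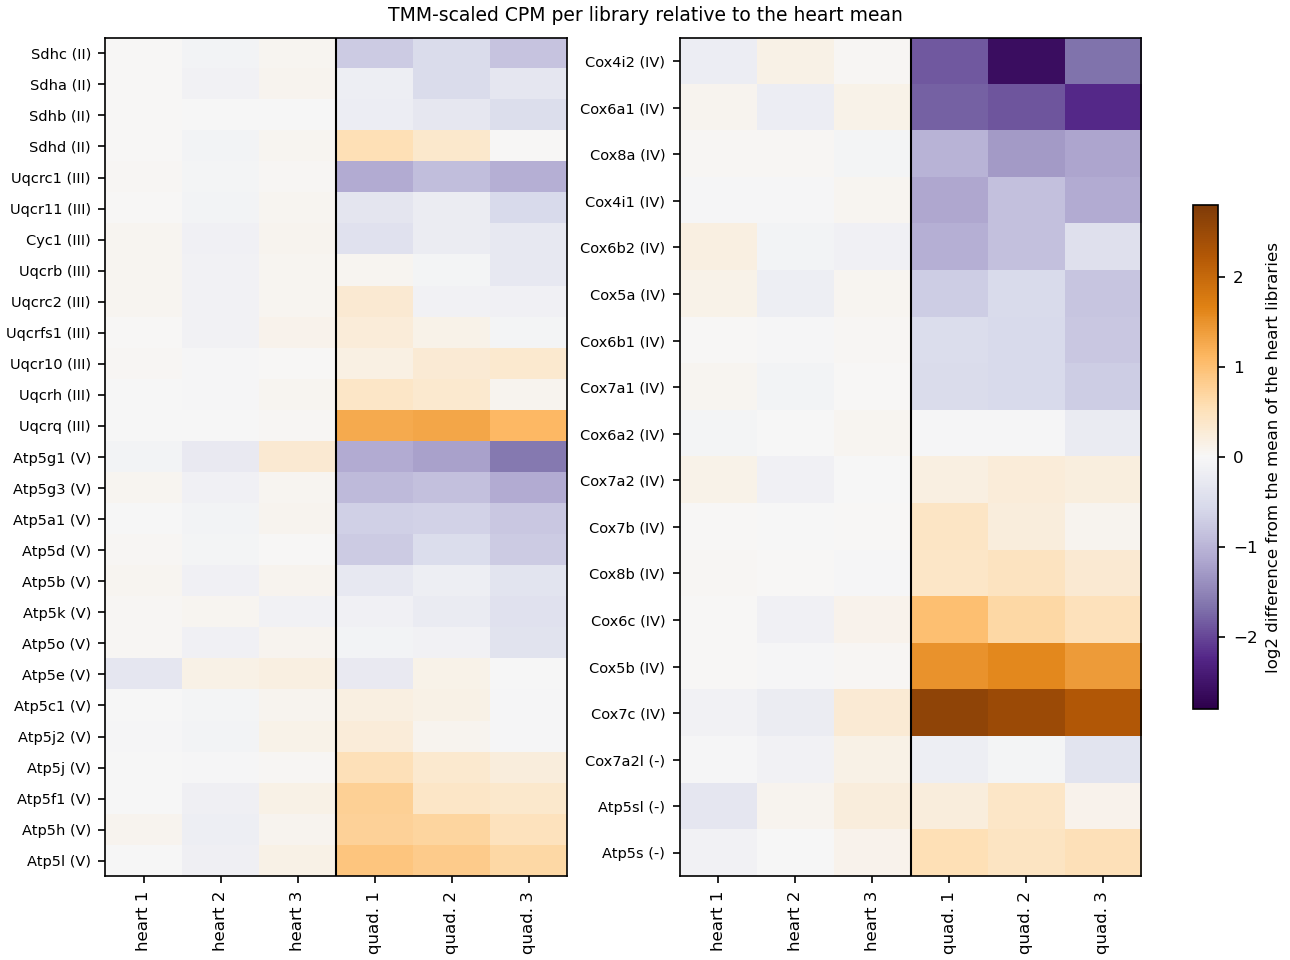
TMM-scaled CPM of 45 tested genes in each library (columns), as the log2 difference from the mean of the 3 heart libraries (colour), with the complex in brackets. The heart columns lie near 0, and Cox4i2 and Cox6a1 (lowest) and Cox7c, Cox5b and Uqcrq (highest) stand out in all 3 quadriceps columns.

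Complex II has a catalytic head of Sdha, the flavoprotein, and Sdhb, the iron-sulfur protein, held in the membrane by Sdhc and Sdhd. Of the 4 genes, 2 were lower in quadriceps with TMM (background 34.4%), 0 were higher (background 32.2%) and 2 did not pass. With library totals all 4 were lower (background 62.6%). Sdhc had 216, 205 and 225 CPM in heart and 129, 149.9 and 121 in quadriceps. The groups did not overlap, and Sdhc was lower in quadriceps (log2 fold change -0.69 ± 0.11 SE, adjusted p = 0.000502, edgeR), also with library totals (log2 fold change -1.44). Sdhb had 300.1, 296 and 294 CPM in heart and 262, 243 and 215 in quadriceps, which is lower in quadriceps by a smaller margin (log2 fold change -0.30 ± 0.11 SE, adjusted p = 0.0346, edgeR, -1.05 with totals). This difference did not pass without heart library 1, 2 or 3 or without quadriceps library 3 (adjusted p up to 0.133, edgeR). Sdha had 879, 814 and 910.05 CPM in heart and 772, 609.9 and 698 in quadriceps, with no overlap, and just missed the threshold (log2 fold change -0.32 ± 0.13 SE, adjusted p = 0.0507, edgeR). With totals it was lower (-1.07). With TMM it passed without quadriceps library 1 (log2 fold change -0.38). Sdhd had 189, 180.2 and 197 CPM in heart and 278, 242 and 189 in quadriceps. Its groups overlapped in quadriceps library 3, and the sign turned with the scaling (log2 fold change 0.32 ± 0.14 SE, adjusted p = 0.0726, edgeR with TMM, -0.42 with totals). With TMM, Sdhd passed as higher without quadriceps library 3 (adjusted p = 0.00706, edgeR). The membrane anchors Sdhc and Sdhd thus had opposite signs with TMM and the same sign with totals.

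In complex III, 3 genes were lower in quadriceps with TMM (33.3%, background 34.4%), 2 higher (22.2%, background 32.2%) and 4 in neither direction. With totals, 8 were lower (88.9%, background 62.6%) and 1 higher (11.1%, background 13.3%). Uqcrc1, a core protein, was the lowest, with 371, 354 and 371 CPM in heart and 171, 198 and 175 in quadriceps. That difference was over 1 on the log2 scale (log2 fold change -1.01 ± 0.11 SE, adjusted p = 3.02e-05, edgeR, -1.76 with totals) and without overlap. Its partner core protein Uqcrc2 had 345, 309.9 and 349.6 CPM in heart and 413, 314 and 309 in quadriceps, which overlap, and did not pass (log2 fold change 0.05 ± 0.14 SE, adjusted p = 0.780, edgeR) with TMM. With totals its log2 fold change was -0.69, of the opposite sign and past the threshold. Uqcrc2 overlaps Pdzd9 on the opposite strand, and the strand setting of the counting is not given in the sources used here. The electron carriers of the complex are the Rieske protein Uqcrfs1 and cytochrome c1. Uqcrfs1 had 304, 285 and 322 CPM in heart and 359.99, 331 and 292 in quadriceps and did not pass (log2 fold change 0.11 ± 0.12 SE, adjusted p = 0.426, edgeR, -0.63 with totals). Cyc1 had 211, 186 and 212 CPM in heart and 154, 174 and 168 in quadriceps and was lower in quadriceps (log2 fold change -0.29 ± 0.11 SE, adjusted p = 0.0355, edgeR, -1.05 with totals), but missed the threshold without heart library 1 or 3 or quadriceps library 1 or 3 (adjusted p up to 0.129, edgeR).

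Among the small subunits of complex III, Uqcrq was the only one called higher with all 3 scalings. It had 137, 137 and 141 CPM in heart and 328, 338 and 299 in quadriceps, so every quadriceps library lay above every heart library (log2 fold change 1.22 ± 0.10 SE, adjusted p = 6.06e-06, edgeR, 0.47 with totals). None of its 50-base windows is found at another locus. Uqcr10 had 37.2, 35.7 and 36.5 CPM in heart and 40.6, 44.6 and 46.4 in quadriceps and was higher with TMM (log2 fold change 0.27 ± 0.09 SE, adjusted p = 0.0308, edgeR) but lower with totals (-0.49). It lost the TMM call without heart library 1, 2 or 3 or quadriceps library 3 (adjusted p up to 0.113, edgeR). Uqcrh, the hinge protein and the most abundant gene of the complex by RPKM, had 334, 327 and 347 CPM in heart and 445, 426 and 357 in quadriceps, with no overlap, and did not pass with TMM (log2 fold change 0.28 ± 0.12 SE, adjusted p = 0.0591, edgeR, -0.46 with totals). Uqcr11 had 42.2, 39.7 and 43.8 CPM in heart and 32.9, 35.986 and 28.4 in quadriceps and was lower (log2 fold change -0.37 ± 0.11 SE, adjusted p = 0.0155, edgeR, -1.12 with totals), though not without heart library 1 or 3 or quadriceps library 3 (adjusted p up to 0.0883, edgeR). Uqcrb had 73.5, 66.5 and 74.2 CPM in heart and 73.999, 68.5 and 58.8 in quadriceps. These overlap and did not pass with TMM (log2 fold change -0.09 ± 0.11 SE, adjusted p = 0.505, edgeR). With totals Uqcrb was lower (-0.83).

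Complex IV held the widest spread of all 4 complexes. With TMM, 8 of the 16 genes tested were lower in quadriceps (50%, background 34.4%), 4 higher (25%, background 32.2%) and 4 in neither direction. With totals, 13 were lower (81.25%, background 62.6%) and 2 higher (12.5%, background 13.3%). By RPKM, a level per length of transcript, Cox6a2 was the most abundant in both tissues, at 1886 ± 80.9 RPKM in heart and 1046 ± 122 in quadriceps (mean ± SD, n = 3). Cox6c had 768 ± 54.7 RPKM in heart and 767 ± 193 in quadriceps (mean ± SD, n = 3), hence a like level in both tissues on that scale. Cox7a1, Cox6b1, Cox7b, Cox4i1 and Cox8b each had a mean of 492 to 764 RPKM in heart and of 191 to 492 in quadriceps.

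The isoform pairs were read as ratios of counts per kilobase within each library, which do not depend on the scaling between libraries. There were 6 pairs with both genes past the count filter and above 0 in every library. With 3 libraries against 3, the exact two-sided permutation test cannot go below p = 0.1, so none could pass 0.05. In 5 of the 6 pairs the tissues did not overlap (exact p = 0.1, 0.12 adjusted over the 6 pairs), and in Cox6b2 to Cox6b1 they did (exact p = 0.5).

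**Figure D3:**
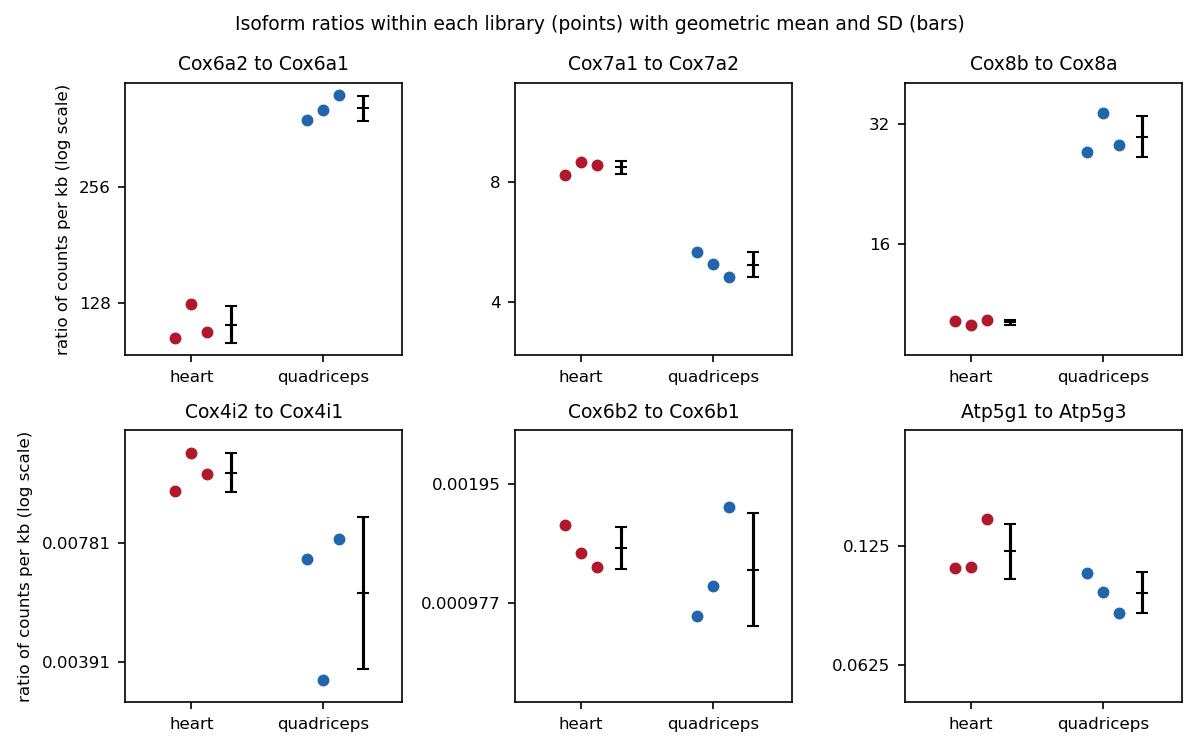
Ratio of counts per kilobase of 2 isoform genes within each library (points, log scale), with the geometric mean and SD of each tissue (bars). The ratios of Cox6a2 to Cox6a1 and of Cox8b to Cox8a lie higher in quadriceps, those of Cox7a1 to Cox7a2, Cox4i2 to Cox4i1 and Atp5g1 to Atp5g3 lie lower, and Cox6b2 to Cox6b1 overlaps.

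Subunit 6a has the muscle form Cox6a2 and the general form Cox6a1. Cox6a2 exceeded Cox6a1 by 104, 127 and 108 times in the heart libraries and by 382, 407 and 444 times in quadriceps. The log2 ratio was higher in quadriceps by 1.87 ± 0.11 (SE, n = 3 per tissue). The general form Cox6a1 had 7.16, 5.94 and 7.43 CPM in heart and 1.95, 1.84 and 1.47 in quadriceps and was lower in quadriceps (log2 fold change -1.95 ± 0.16 SE, adjusted p = 5.98e-06, edgeR, -2.69 with totals). Cox6a2 had 919.7, 938 and 993 CPM in heart and 923, 927 and 807 in quadriceps, which overlap, and did not pass (log2 fold change -0.10 ± 0.12 SE, adjusted p = 0.474, edgeR). With totals Cox6a2 was lower too (-0.85). Of the windows of Cox6a1, 12.3% are also found in 1 processed pseudogene, and Cox6a2 overlaps Itgad on the opposite strand.

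Subunit 8 has the muscle form Cox8b and the general form Cox8a. Cox8b exceeded Cox8a by 10.2, 9.996 and 10.3 times in heart and by 27.3, 34.1 and 28.4 times in quadriceps, a log2 ratio higher by 1.55 ± 0.10 (SE, n = 3 per tissue). Cox8a had 20.5, 20.6 and 19.5 CPM in heart and 10.036, 8.36 and 8.98 in quadriceps and was lower (log2 fold change -1.14 ± 0.11 SE, adjusted p = 1.13e-05, edgeR, -1.89 with totals). Cox8b had 139, 137 and 133 CPM in heart and 182, 189 and 169 in quadriceps, without overlap. With TMM it was higher (log2 fold change 0.40 ± 0.10 SE, adjusted p = 0.00492, edgeR) and with totals lower (-0.35). Neither gene shares a 50-base window with another locus. The promoters of the pair differ in sequence, and each holds 2 copies of a motif that the other lacks. Both are shown here from RefSeq (GRCm38.p6, minus strand, 250 bases before to 50 after the start). Capitals mark the E-box CAGCTG, bound by muscle transcription factors of the MyoD family, in Cox8b (chr7:140900397-140900696) and the ETS motif, CCGGAAG or its reverse complement, in Cox8a (chr19:7217567-7217866).
Cox8b: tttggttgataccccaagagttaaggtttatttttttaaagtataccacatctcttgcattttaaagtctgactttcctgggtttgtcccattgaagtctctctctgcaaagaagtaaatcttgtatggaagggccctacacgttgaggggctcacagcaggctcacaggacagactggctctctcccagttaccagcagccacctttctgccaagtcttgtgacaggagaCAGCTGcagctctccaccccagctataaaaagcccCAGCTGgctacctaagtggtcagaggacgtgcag
Cox8a: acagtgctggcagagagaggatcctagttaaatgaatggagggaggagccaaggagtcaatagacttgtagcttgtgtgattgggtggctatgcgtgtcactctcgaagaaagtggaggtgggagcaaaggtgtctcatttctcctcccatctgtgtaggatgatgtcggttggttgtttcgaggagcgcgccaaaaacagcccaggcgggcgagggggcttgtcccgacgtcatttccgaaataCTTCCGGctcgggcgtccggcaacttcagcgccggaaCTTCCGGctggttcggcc

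Over the 37 genes with a RefSeq promoter, Atp5s, Atp5sl and Cox7a2l included, an E-box CAGCTG stood in 2, Cox8b and Atp5b (5.41%, against 16.3% of all 32851 promoters of that length, both strands). The shares of these genes count genes, which have 41 promoters, while the background counts promoters. The ETS motif stood in 12 (32.4%, against 8.86%). A core of the NRF-1 site, TGCGCA, stood in 8 (21.6%, against 7.76%), among them Cox5b and Cox6a1. The half-site of the oestrogen-related receptors, AAGGTCA, stood in 5 (13.5%, against 4.72%), among them Atp5g3. A core of the MEF2 site, CTATTTA, stood in 0 (against 2.91%). The promoters of Cox7a1 and Cox7a2, whose ratio also parted the tissues, hold none of these motifs. All these matches describe letters in a window, and their part in the isoform ratios was not tested.

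Subunit 7a went the other way. The muscle form Cox7a1 exceeded the general form Cox7a2 by 8.35, 8.97 and 8.82 times in heart and by 5.33, 4.97 and 4.61 times in quadriceps, a log2 ratio lower by 0.81 ± 0.07 in quadriceps (SE, n = 3 per tissue). Cox7a1 had 211, 194 and 205 CPM in heart and 142, 138 and 124 in quadriceps and was lower (log2 fold change -0.60 ± 0.10 SE, adjusted p = 0.000678, edgeR, -1.34 with totals). Cox7a2 had 52.5, 44.954 and 48.4 CPM in heart and 55.4, 57.6 and 55.9 in quadriceps. It did not pass with TMM (log2 fold change 0.21 ± 0.10 SE, adjusted p = 0.0783, edgeR) and was lower with totals (-0.54). Relative to the partner gene, the muscle form Cox7a1 stood lower in quadriceps than in heart, while Cox6a2 and Cox8b stood higher. Quadriceps library 1, with the most adipocyte marker RNA, had the ratio nearest to heart in the pairs of Cox6a, Cox7a and Cox8. In the pair of Cox4i2 and Cox4i1, given next, library 3, with the least of that RNA, was nearest. In the pair of Cox8, library 3 lay nearer to heart than library 2. In the pairs of Cox6a and Cox7a, and of Atp5g1 and Atp5g3 given below, libraries 1, 2 and 3 lay farther from heart in that order. The part of adipocytes in these ratios was not tested.

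Subunit 4 has the general form Cox4i1, and Cox4i2, known from lung, pericytes and the response to low oxygen. Cox4i1 had 369.5, 369.7 and 388 CPM in heart and 169.9, 206 and 174 in quadriceps, lower in quadriceps without overlap (log2 fold change -1.03 ± 0.12 SE, adjusted p = 3.90e-05, edgeR, -1.79 with totals). Cox4i2 had 3.7995, 4.75 and 4.4006 CPM in heart and 1.18, 0.711 and 1.36 in quadriceps and was lower still (log2 fold change -2.01 ± 0.22 SE, adjusted p = 3.87e-05, edgeR, -2.75 with totals). The ratio of Cox4i2 to Cox4i1 was 0.0105, 0.0132 and 0.0116 in heart and 0.00709, 0.00352 and 0.00798 in quadriceps, a log2 difference of -1.0035 ± 0.38 (SE, n = 3 per tissue). Among the pericyte and smooth muscle markers, Pdgfrb, Cspg4, Notch3, Kcnj8 and Acta2 were lower in quadriceps (log2 fold changes -1.44, -1.52, -2.08, -0.94 and -1.29), while Rgs5, Abcc9 and Myh11 did not pass (-0.0084, 0.050 and 0.049). The sum of all 8 was carried by Rgs5 and Abcc9, at 612 to 685 CPM in heart and 498 to 588 in quadriceps. The part of these cells in this ratio was not tested. Subunit 6b has the general form Cox6b1 and the testis form Cox6b2. Cox6b1 had 294, 288 and 299.6 CPM in heart and 209.5, 200.4 and 171 in quadriceps and was lower (log2 fold change -0.60 ± 0.11 SE, adjusted p = 0.00111, edgeR, -1.35 with totals). Cox6b2 was at 0.419 to 0.525 CPM in heart and 0.221 to 0.339 in quadriceps and did not pass (log2 fold change -0.80 ± 0.34 SE, adjusted p = 0.0654, edgeR, -1.54 with totals, which passed), and its ratio to Cox6b1 differed by -0.18 ± 0.29 (SE, n = 3 per tissue). Cox7b had 533, 523 and 537 CPM in heart and 712, 627 and 557 in quadriceps, with no overlap, and did not pass with TMM (log2 fold change 0.25 ± 0.12 SE, adjusted p = 0.10031, edgeR, -0.49 with totals). Its testis form Cox7b2 had 25 counts in heart and 1 in quadriceps. The rate in heart was 12.2 times that in quadriceps (95% exact interval 1.999 to 501, counting error only, TMM-scaled). Cox7b2 met the count filter only through the heart libraries (7, 7 and 11 counts), where it is high, so its test cannot support a difference. That test gave adjusted p = 0.0131 (edgeR), 0.0507 without quadriceps library 1 and 0.00384 with totals.

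Of the complex IV genes without a paired form, Cox5a and Cox5b, both parts of the matrix face, differed in opposite directions. Cox5a had 94.4, 77.7 and 91.1 CPM in heart and 53.5, 60.4 and 50.6 in quadriceps and was lower in quadriceps (log2 fold change -0.68 ± 0.12 SE, adjusted p = 0.000617, edgeR, -1.43 with totals). Cox5b had 36.9, 36.1 and 37.6 CPM in heart and 105, 113 and 97.6 in quadriceps, higher in every quadriceps library (log2 fold change 1.51 ± 0.10 SE, adjusted p = 1.09e-06, edgeR, 0.76 with totals). Cox7c had 2.83, 2.62 and 3.75 CPM in heart and 18.7, 16.8 and 14.2 in quadriceps, the largest difference upward of all 46 genes (log2 fold change 2.44 ± 0.16 SE, adjusted p = 1.46e-06, edgeR, 1.70 with totals). Its level was low for a subunit of this complex, at 8.97 ± 1.74 RPKM in heart and 28.9 ± 5.52 in quadriceps (mean ± SD, n = 3), and 53.0% of its 50-base windows are also found in 3 processed pseudogenes, so its counts are uncertain. Cox6c had 296, 271 and 315 CPM in heart and 590.2, 463 and 419 in quadriceps and was higher with TMM (log2 fold change 0.74 ± 0.15 SE, adjusted p = 0.00162, edgeR), with no difference in either direction called with totals (-0.0010).

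In complex V, 4 genes were lower in quadriceps with TMM (28.6%, background 34.4%), 4 higher (28.6%, background 32.2%) and 6 in neither direction. With totals, 11 were lower (78.6%, background 62.6%) and 0 higher (background 13.3%). The catalytic F1 head is made of the alpha subunit Atp5a1 and the beta subunit Atp5b around the stalk subunits Atp5c1, Atp5d and Atp5e. Atp5a1 had 1921, 1821 and 2036 CPM in heart and 1220, 1230 and 1117 in quadriceps and was lower (log2 fold change -0.70 ± 0.12 SE, adjusted p = 0.000817, edgeR, -1.44 with totals). Atp5b was the most abundant of the complex in heart by RPKM (1184 ± 80.1 RPKM in heart and 584 ± 48.2 in quadriceps (mean ± SD, n = 3)), and Atp5j in quadriceps (1027 ± 25.8 RPKM in heart and 794 ± 139 in quadriceps (mean ± SD, n = 3)). Atp5b had 1765, 1556 and 1789 CPM in heart and 1415, 1506 and 1320 in quadriceps. The groups did not overlap, but the difference did not pass with TMM (log2 fold change -0.27 ± 0.13 SE, adjusted p = 0.0902, edgeR, -1.02 with totals). Atp5d had 68.1, 63.8 and 66.5 CPM in heart and 39.6, 46.9 and 39.8 in quadriceps and was lower (log2 fold change -0.65 ± 0.10 SE, adjusted p = 0.000395, edgeR, -1.40 with totals). Atp5c1 had 460.4, 448 and 489 CPM in heart and 529, 511 and 455 in quadriceps, and Atp5e 70.4, 97.2 and 99.5 CPM in heart and 73.5, 95.1 and 87.3 in quadriceps. Both overlapped and neither passed with TMM (log2 fold change 0.10 ± 0.11 SE, adjusted p = 0.465, edgeR for Atp5c1; log2 fold change -0.06 ± 0.15 SE, adjusted p = 0.736, edgeR for Atp5e). The sign of Atp5c1 turned with totals (-0.65), and that of Atp5e was negative there and passed (-0.82).

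The membrane ring of complex V is built of subunit c, whose mature protein is encoded alike by Atp5g1, Atp5g2 and Atp5g3. Atp5g3 had 234, 206 and 233 CPM in heart and 118, 123 and 104 in quadriceps and was lower in quadriceps (log2 fold change -0.96 ± 0.11 SE, adjusted p = 5.20e-05, edgeR, -1.71 with totals). Atp5g1 had 28.7, 25.4 and 37.8 CPM in heart and 14.1, 13.1 and 9.83 in quadriceps and was lower as well (log2 fold change -1.30 ± 0.18 SE, adjusted p = 0.000158, edgeR, -2.05 with totals). Atp5g1 stood at 0.110, 0.111 and 0.146 of Atp5g3 in heart and at 0.107, 0.0954 and 0.0846 in quadriceps, a log2 ratio lower by 0.35 ± 0.17 (SE, n = 3 per tissue). The gap between the tissues was narrow in that ratio, and 66.0% of the windows of Atp5g1 and 87.4% of those of Atp5g2 are also found in processed pseudogenes, whereas Atp5g3 shares none. The counts of Atp5g1 and Atp5g2 are therefore uncertain.

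Of the 4 subunits of the peripheral stalk of complex V, 3 were higher with TMM (background 32.2%). Atp5f1 (subunit b) had 277, 253 and 307 CPM in heart and 477, 369 and 355 in quadriceps and was higher (log2 fold change 0.52 ± 0.14 SE, adjusted p = 0.00995, edgeR), though not without heart library 2 (adjusted p = 0.0527, edgeR), and with totals its sign was negative (-0.22). Atp5h (subunit d) had 56.7, 48.2 and 56.3 CPM in heart and 91.019, 88.3 and 75.8 in quadriceps and was higher with TMM (log2 fold change 0.66 ± 0.11 SE, adjusted p = 0.000649, edgeR) but not with totals (-0.083). Atp5j (coupling factor 6) had 676, 659 and 697 CPM in heart and 980.2, 862 and 790.3 in quadriceps. It was higher with TMM (log2 fold change 0.37 ± 0.12 SE, adjusted p = 0.0238, edgeR), lower with totals (-0.37), and lost the TMM call without heart library 1, 2 or 3 (adjusted p up to 0.0934, edgeR). Atp5o, the subunit that confers sensitivity to oligomycin, had 142, 127 and 146 CPM in heart and 130.4, 128 and 106 in quadriceps, which overlap, and did not pass (log2 fold change -0.18 ± 0.12 SE, adjusted p = 0.188, edgeR, -0.93 with totals). Shared sequence was found for Atp5h (50.5% of windows), Atp5f1 (23.2%) and Atp5o (19.1%), and Atp5j overlaps Gabpa on the opposite strand. The small membrane subunits Atp5k (e), Atp5j2 (f) and Atp5l (g) take part in dimer formation or hold the membrane part. Atp5k had 182, 184 and 166 CPM in heart and 162, 152 and 134 in quadriceps, with no overlap, and did not pass (log2 fold change -0.25 ± 0.11 SE, adjusted p = 0.0715, edgeR, -0.995 with totals). Atp5j2 had 69.8, 68.2 and 78.024 CPM in heart and 86.1, 76.2 and 69.9 in quadriceps and did not pass (log2 fold change 0.10 ± 0.11 SE, adjusted p = 0.424, edgeR, -0.64 with totals). Atp5l had 1.09, 0.994 and 1.21 CPM in heart and 2.0953, 1.96 and 1.75 in quadriceps and was higher with TMM (log2 fold change 0.83 ± 0.19 SE, adjusted p = 0.00344, edgeR), with 0.082 by totals. For Atp5l 68.5% of windows are also found at 13 other loci, 12 of them pseudogenes, so its counts are uncertain too.

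Of the 3 genes that are not subunits, Atp5s had 9.24, 9.76 and 10.6 CPM in heart and 14.5, 13.5 and 14.2 in quadriceps and was higher with TMM (log2 fold change 0.51 ± 0.10 SE, adjusted p = 0.00159, edgeR, -0.24 with totals). Cox7a2l, known for a role in supercomplexes of complexes III and IV that was not examined in these mice, had 37.3, 35.991 and 42.1 CPM in heart and 34.1, 36.8 and 29.8 in quadriceps. It did not pass (log2 fold change -0.20 ± 0.11 SE, adjusted p = 0.154, edgeR, -0.95 with totals). Atp5sl, known for a role in the assembly of complex I, had 15.009, 19.7 and 21.9 CPM in heart and 21.8, 24.7 and 19.9 in quadriceps and did not pass (log2 fold change 0.23 ± 0.15 SE, adjusted p = 0.192, edgeR, -0.52 with totals).

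Sequence shared with other loci touches these genes unevenly. In the GENCODE transcripts linked to the RefSeq ones, 26 of the 48 genes hold no 50-base window (the read length) that is found exactly in a transcript of another locus, 16 hold up to 40% and 6 hold over 40% (Atp5g2, Atp5l, Atp5g1, Cox7c, Atp5h and Uqcrb). How reads with several alignments were counted is not given in the sources used here. Genes that overlap at the same locus, on either strand, hold further windows. The largest such shares were 39.4% for Atp5o, 29.2% for Cox5a, 24.8% for Uqcrc2, 17.0% for Atp5l, 15.6% for Atp5f1 and 12.2% for Cox4i1. For Atp5o, the overlapping entry on the same strand is also named Atp5o, so its share may be the gene's own sequence. Among these, Cox5a and Cox4i1 were called lower with all scalings. Of the 3 genes called higher with all scalings, Uqcrq shares none, Cox5b shares 25.9% with 1 other gene and Cox7c shares 53.0%. The GENCODE transcript of Cox5b is 865 bases long, against 563 in the table, so its share may not hold for the counted model.

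**Figure D4:**
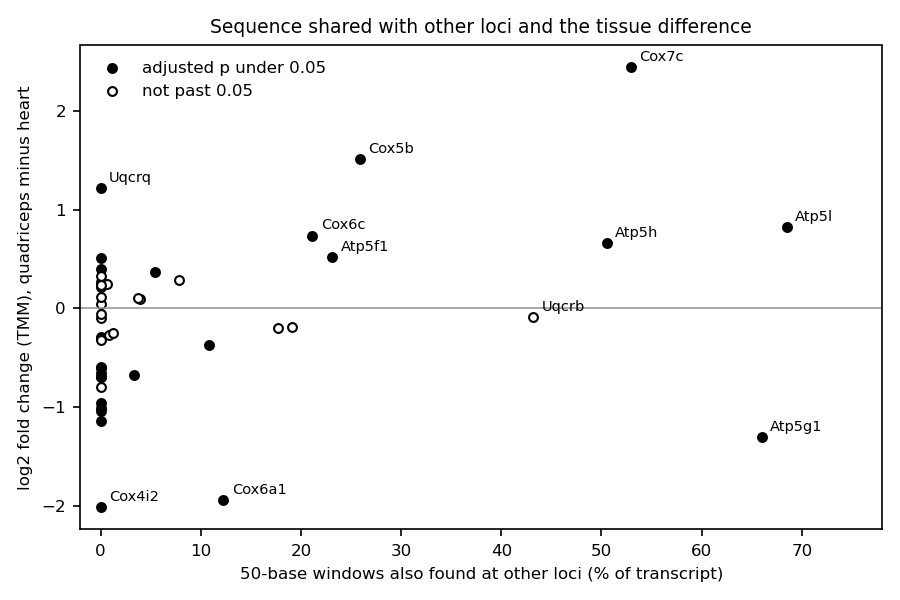
Share of 50-base windows also found at other loci (horizontal axis, % of the transcript) against the TMM log2 fold change (vertical axis) of 45 tested genes; filled points passed adjusted p under 0.05. Genes with no shared window lie on both sides of 0, and of the 5 tested genes over 40%, Cox7c, Atp5l and Atp5h lie above it and Uqcrb and Atp5g1 below.

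Summed over the subunits of a complex, RPKM of the most counted transcripts ranked in the order IV, V, III and II in both tissues. Complex II summed to 1188 ± 34.002 in heart and 595 ± 95.6 in quadriceps, complex III to 2390 ± 84.6 and 1519 ± 199, complex IV to 6416 ± 164 and 3783 ± 545, and complex V to 5980 ± 215 and 3251 ± 416 (mean ± SD, n = 3 per tissue). The log2 differences were -1.01 ± 0.13, -0.66 ± 0.11, -0.77 ± 0.12 and -0.89 ± 0.11 (SE). No complex overlapped between the tissues, and each exact permutation p was 0.1, the smallest that 3 against 3 allow (0.1 adjusted over 7 comparisons). With TMM-scaled library sizes, complex II differed by -0.26, complex III by 0.09, complex IV by -0.02 and complex V by -0.13, so the sign of complex III turned.

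Ratios between complexes within a library are free of that scaling. Complex II stood at 0.187, 0.183 and 0.185 of complex IV in heart and at 0.161, 0.152 and 0.159 in quadriceps, a log2 difference of -0.24 ± 0.02 (SE, n = 3). Complex V stood at 0.936, 0.919 and 0.941 in heart and at 0.847, 0.862 and 0.874 in quadriceps, which is -0.11 ± 0.02. Complex III stood at 0.376, 0.366 and 0.375 in heart and at 0.396, 0.405 and 0.405 in quadriceps, which is 0.11 ± 0.02. None of the 3 ratios overlapped between the tissues (exact p = 0.1 each, 0.1 adjusted over 7 comparisons). Without the most abundant gene of each complex, the ratio of III to IV changed sign (-0.03), and it did so with the median gene of each complex (-0.63). With all transcripts of each gene summed, which counts reads in shared exons several times, the order of IV and V turned. Complex V then summed to 12621 ± 352 RPKM in heart and 8158 ± 1208 in quadriceps, and complex IV to 7094 ± 173 and 3960.2 ± 552 (mean ± SD, n = 3 per tissue). The ratio of V to IV was then higher in quadriceps (0.21 ± 0.01 SE on the log2 scale), and those of II and III kept their sign.

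**Figure D5:**
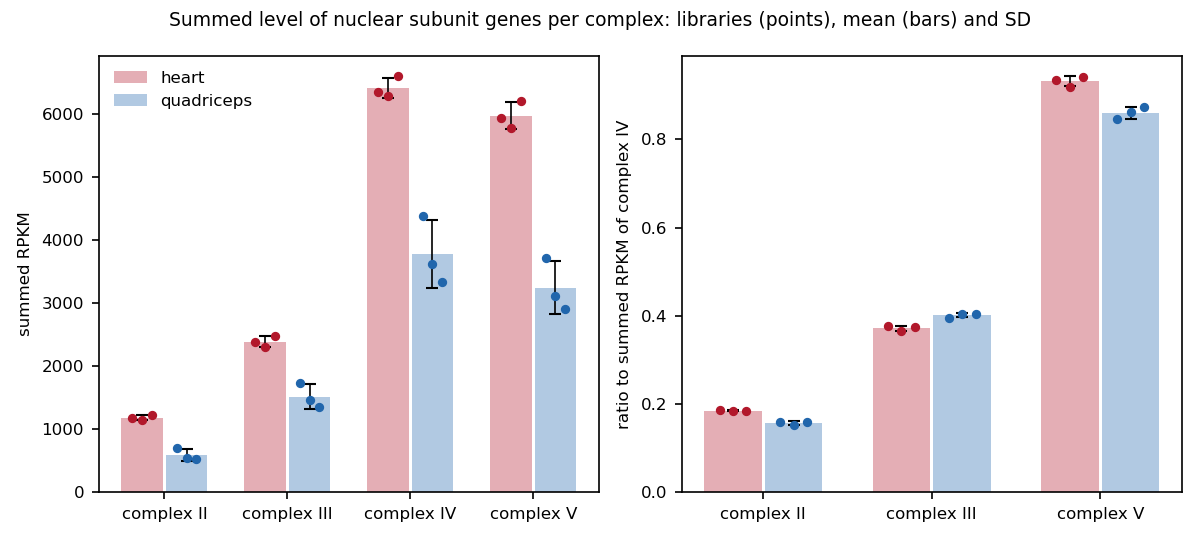
Summed RPKM of the nuclear subunit genes per complex (left) and ratio to complex IV within each library (right). Points are libraries, bars are means with SD (n = 3 per tissue), and each complex is lower in quadriceps on this scale, which uses library totals, while the ratio of complex III to IV is higher and those of II and V are lower.

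Assembly factors, which build the complexes but are not part of them, were read from a list of 38 genes. With TMM, 4 were lower in quadriceps (background 34.4%), 19 were higher (background 32.2%) and 15 passed in neither direction, with a median log2 fold change of 0.26 (-0.06 over all transcripts tested). With totals, 23 were lower (60.5%, background 62.6%) and 8 higher (21.1%, background 13.3%), with a median of -0.48 (-0.80 over all). Highest were 3 factors whose direction held with totals. Cox16, which helps to mature subunit 2 of complex IV, had 8.82, 8.41 and 9.57 CPM in heart and 36.8, 39.5 and 39.4 in quadriceps (log2 fold change 2.11 ± 0.10 SE, adjusted p = 1.59e-07, edgeR, 1.36 with totals), but it overlaps other genes on its strand, among them the read-through gene Gm20498. Pet100, another complex IV factor, had 21.9, 21.026 and 22.8 CPM in heart and 57.5, 56.5 and 52.9 in quadriceps (log2 fold change 1.35 ± 0.09 SE, adjusted p = 1.76e-06, edgeR, 0.60 with totals), and overlaps Pcp2 on the opposite strand. Sdhaf3, a factor of complex II, had 3.74, 3.97 and 4.17 CPM in heart and 10.2, 9.91 and 8.76 in quadriceps (log2 fold change 1.29 ± 0.12 SE, adjusted p = 1.01e-05, edgeR, 0.54 with totals). Lowest were Sco1, Lrpprc and Lyrm7. Sco1, a copper chaperone of complex IV, had 18.6, 17.2 and 17.2 CPM in heart and 8.1976, 8.23 and 6.44 in quadriceps (log2 fold change -1.21 ± 0.12 SE, adjusted p = 1.86e-05, edgeR, -1.95 with totals). Lrpprc, which stabilises mitochondrial mRNAs, had 127, 139 and 148 CPM in heart and 88.3, 52.7 and 69.8 in quadriceps (log2 fold change -0.97 ± 0.17 SE, adjusted p = 0.000825, edgeR, -1.70 with totals). Lyrm7, a complex III factor for the Rieske protein Uqcrfs1, had 12.1, 16.4 and 16.9 CPM in heart and 11.5, 10.4 and 8.14 in quadriceps (log2 fold change -0.59 ± 0.17 SE, adjusted p = 0.0109, edgeR, -1.34 with totals).

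Further genes of the complexes carry other names. Atpif1, the inhibitor that stops complex V from splitting ATP, had 79.957, 84.7 and 78.3 CPM in heart and 20.9, 17.3 and 15.5 in quadriceps, lower in quadriceps without overlap (log2 fold change -2.17 ± 0.13 SE, adjusted p = 5.32e-07, edgeR, -2.92 with totals). The small complex V proteins Usmg5 and 2010107E04Rik were higher with TMM (log2 fold change 0.75 ± 0.13 SE, adjusted p = 0.000706, edgeR for Usmg5; log2 fold change 0.37 ± 0.11 SE, adjusted p = 0.0124, edgeR for 2010107E04Rik), but with totals Usmg5 was at 0.010 and 2010107E04Rik lower at -0.38. Ndufa4, now known as a part of complex IV, was higher with TMM (log2 fold change 0.46 ± 0.12 SE, adjusted p = 0.00625, edgeR) and negative with totals (-0.29). Higd1a and Higd2a, which associate with complex IV, were lower with both (log2 fold change -0.70 ± 0.15 SE, adjusted p = 0.00208, edgeR for Higd1a; log2 fold change -0.32 ± 0.12 SE, adjusted p = 0.0393, edgeR for Higd2a; -1.44 and -1.07 with totals). Cytochrome c, the carrier between complexes III and IV, is encoded by Cycs, which had 73.4, 62.4 and 63.8 CPM in heart and 76.976, 70.4 and 63.8 in quadriceps and did not pass with TMM (log2 fold change 0.08 ± 0.11 SE, adjusted p = 0.531, edgeR, -0.66 with totals). Its testis form Cyct had 112 counts in heart and 1 in quadriceps, a rate 54.7 times as high in heart (95% exact interval 9.62 to 2180, counting error only, TMM-scaled).

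Complex I and other mitochondrial proteins were set beside these subunits. Of 36 complex I subunits, 6 were lower with TMM (16.7%, background 34.4%), 14 higher (38.9%, background 32.2%) and 16 in neither direction. On the log2 scale, complex I had a median of 0.12 and the 43 tested subunits of complexes II to V one of -0.18. All tested transcripts had a median of -0.06, and those of up to 1000 bases one of 0.32. Of 20 other mitochondrial genes, 7 were lower (35%), 6 higher (30%) and 7 in neither direction (median -0.02), which is near the background both ways. With totals (background 62.6% lower and 13.3% higher), 26 complex I subunits were lower (72.2%) and 2 higher (5.56%), with a median of -0.63. Of the mitochondrial genes, 13 were then lower (65%) and 3 higher (15%), with a median of -0.76. These medians were not tested against each other.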

How the data were processed

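RNA was sequenced by the study on an Illumina instrument with 50-cycle single reads from ScriptSeq v2 libraries. Per the submitters' processing notes and the study's methods, reads were trimmed with Trim Galore, aligned with STAR to mm10 and counted per RefSeq transcript with Rsubread. The authors deposited raw counts per transcript, which are the values analysed here. The authors also deposited RPKM values, which equal the counts divided by transcript length and column total. The authors' own fold changes, test statistics and p-values were not used, nor were 6 columns of single libraries. Versions of the upstream tools, the strand setting and the handling of reads with several alignments are not given in the sources used here.

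Counts were tested with edgeR 4.0.16 (quasi-likelihood, TMM, Benjamini-Hochberg over the 24280 transcripts that exceeded 5 counts in 2 or more libraries) in R 4.3.3. Alternatives used DESeq2 1.42.0, limma 3.58.1 on RPKM, library totals, other filters and a replicate block. On simulated data for this comparison (23861 transcripts), 87% of transcripts changed by 1 and 98% of those changed by 2 on the log2 scale were recovered, with 6.57% false calls. The simulation raised as many transcripts as it lowered and held the others level between the tissues, so it could not test the scaling. Ratios and sums were tested by exact permutation over the 3 and 3 libraries. No 2 libraries agreed within sampling noise. Named with values were both genes of each isoform pair, the complex II subunits, members with the largest and smallest differences, the most abundant, all that were higher and all that did not pass, and of the lists the 3 largest differences each way. The members and all lists were chosen with earlier results of these data known.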

Additional observations from a re-analysis of the deposited data

How the results depend on the processing

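The scaling between libraries was the choice that moved the results most. By library totals, 38 members were lower in quadriceps and 3 higher, and limma on log2(RPKM + pseudocount) gave 37, 38 and 37 lower and 3 higher each time with pseudocounts of 0.5, 1 and 0.1. Over all 24280 transcripts, totals gave 62.6% lower and 13.3% higher. There limma gave 15319, 15322 and 15365 lower and 3201, 3194 and 3218 higher. Of the assembly factors, 23 were lower and 8 higher by totals, and 24 and 8 with limma at each pseudocount. Scaled to the subunits' own mean, an alternative added after the data had been seen, 14 members were lower and 19 higher (background 28% and 38.7%). The summed RPKM of complex III differed by 0.091 with TMM-scaled library sizes, and its ratio to complex IV by -0.63 with the median member and by -0.029 without the most abundant member. With all transcripts of each gene summed, also added after the data had been seen, the ratio of complex V to IV differed by 0.21, and reads in exons shared by transcripts were then counted several times. The cause was not tested beyond the construction of these settings.

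The log2 fold change changed its sign by library totals and with limma at pseudocounts of 0.5, 1 and 0.1, in that order, for Atp5c1 (-0.65, -0.66, -0.65 and -0.66), Atp5f1 (-0.22, -0.24, -0.24 and -0.24), Atp5h (-0.083, -0.090, -0.089 and -0.090), Atp5j (-0.37, -0.38, -0.38 and -0.38), Atp5j2 (-0.64, -0.65, -0.65 and -0.65), Atp5s (-0.24, -0.23, -0.21 and -0.24), Atp5sl (-0.52, -0.49, -0.47 and -0.50), Cox6c (-0.0010, -0.027, -0.027 and -0.027). The same held for Cox7a2 (-0.54, -0.53, -0.53 and -0.54), Cox7b (-0.49, -0.51, -0.51 and -0.51), Cox8b (-0.35, -0.35, -0.35 and -0.35), Sdhd (-0.42, -0.44, -0.44 and -0.45), Uqcr10 (-0.49, -0.48, -0.48 and -0.49), Uqcrc2 (-0.69, -0.72, -0.71 and -0.72), Uqcrfs1 (-0.63, -0.64, -0.64 and -0.64) and Uqcrh (-0.46, -0.47, -0.47 and -0.47). Under the subunits' own mean the sign changed for Atp5e (0.14), Atp5o (0.013), Cox6a2 (0.096), Cox7a2l (0.0026), Uqcrb (0.11). With at least 10 counts required in every library, Uqcrc2 was at -0.018 and 8 assembly factors were lower (6902 of all 19432 transcripts tested).

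Leaving out 1 library at a time gave 14 to 17 members lower and 8 to 13 higher, and 3 to 7 assembly factors lower (the 7 without quadriceps library 2) and 16 to 21 higher. Over all transcripts (23917 to 24231 tested), these runs gave 7409 to 8357 lower and 6987 to 8146 higher. Of the 28 members past the threshold, 21 passed in all 6 such runs. In these runs Atp5e ranged from -0.21 to 0.063, Uqcrb from -0.14 to 0.021 and Uqcrc2 from -0.076 to 0.14, and the log2 ratio of Cox6b2 to Cox6b1 from -0.44 to 0.0135, so their signs depended on 1 library. DESeq2 size factors in edgeR, DESeq2, no filter and 1 transcript per gene gave 15 to 18 members lower and 10 to 14 higher, and turned no sign. Over all transcripts they gave, in that order, 8170, 7717, 8624 and 5059 lower and 8002, 7708, 7863 and 4744 higher. The transcripts tested were 24280, 24280, 29615 and 14906. Whether same-numbered heart and quadriceps libraries came from the same animal is not stated. Deviations from the tissue mean correlated at 0.02, -0.10 and -0.01 between same-numbered libraries and at -0.054 to 0.0725 between the others. Such values between 2 organs cannot decide it. A replicate block gave 15 members lower and 9 higher, with 4 and 17 assembly factors. Of all 24280 transcripts it gave 8175 lower and 7541 higher. The isoform and complex differences have the same value as pairs by construction (1.87 for Cox6a2 to Cox6a1), and 3 pairs allow no exact p below 0.25. At 23383452 counts in the shallowest library, Cox7b2, Cox6b2, Cox8c and Atp5g2 were near or under the limit of detection.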
